A study of Homo sapiens with 15 samples.

Results

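The set described here holds 9 genes of the actomyosin and adhesion machinery, the filamins FLNA and FLNC, the nonmuscle myosin II heavy chains MYH9 and MYH10, the alpha-actinins ACTN1 and ACTN4, the talin gene TLN1, the vinculin gene VCL and the plectin gene PLEC. They were taken by symbol from the gene count table, which holds 37787 genes, and all 9 were found and passed the filter on low counts, as did 13868 genes in all. The list was drawn up with earlier results of these data known, and the contrast behind it is not named. FOXL2C134W against FOXL2WT is taken here as that contrast, so that this comparison and the others that share its libraries are given as descriptions. Counts of genes past the threshold are printed for these comparisons beside the share over all genes, nothing is read from them, and no p-value of a single gene is given. On GRCh38 (GENCODE 44) they lie on 9 chromosomes, FLNA at X:154348524-154374634, FLNC at 7:128830406-128859274, MYH9 at 22:36281280-36388010, MYH10 at 17:8474207-8631376, ACTN1 at 14:68874128-68979440, ACTN4 at 19:38647649-38731589, TLN1 at 9:35696948-35732195, VCL at 10:73995193-74121363 and PLEC on chromosome 8. RNA was sequenced from HGrC1, an immortalized line of human granulosa cells from before luteinization, whose own FOXL2 alleles are normal, in 5 conditions with 3 libraries each (replicates A, B and C).

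Cells at passage 14 were transfected with plasmids for 4 h and then cultured for 24 h without serum. The condition Vectors received vectors alone. FOXL2WT received SMAD3 with wild type FOXL2, a forkhead transcription factor of granulosa cells, and FOXL2C134W received SMAD3 with the FOXL2 mutant that is characteristic of adult granulosa cell tumors. FOXL2WT + FOXO1 and FOXL2C134W + FOXO1 received, in addition, FOXO1-3A, a FOXO1 mutant that stays in the nucleus and is constitutively active. SMAD3, a transducer of TGF-beta and activin signals, was thus transfected in all conditions but Vectors, and no condition received SMAD3 alone. RNA of SMAD3 was also measured in Vectors, at the level given below. These are transiently transfected populations of a single cell line, in which the endogenous FOXL2 is still present.

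Nonmuscle myosin II filaments pull on actin filaments that filamins and alpha-actinins crosslink, and the pull reaches the extracellular matrix through integrins, to which talin binds from the inside and which vinculin then strengthens. Plectin ties intermediate filaments to actin and to adhesions. In the ovary, actomyosin tension and the stiffness of the surrounding matrix are known to act on granulosa cells, among other routes through YAP and TEAD, and the genes of this machinery include textbook targets of serum response factor (SRF), which binds a motif called the CArG box.

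The sites of such factors were looked for in the RefSeq promoter windows (GRCh38.p14, 250 bases before to 50 after a transcription start), of which 12 matched 8 of the genes and none matched PLEC. The CArG box, searched by name as the SRF motif on both strands, occurred in 1.293% of all 35116 windows and in windows of FLNA and ACTN1. GGAATG, the TEAD motif, occurred in 14.033% of all windows and in windows of FLNC, MYH9, MYH10, ACTN1 and VCL. GTAAACA, a forkhead motif, occurred in 3.423% of all windows, and GTCTAGAC, a SMAD motif, in 0.202%, and neither was found in a window of these genes. The following stretches are shown because they hold matches to the SRF and TEAD motifs, which stand in capitals (the match of MYH10, in the non-coding part of an exon, is not shown), and they lie before the start of transcription, 5′ to 3′ on the strand of the gene.
FLNA, chrX:154374699-154374748, minus strand, upstream of the gene, CArG box: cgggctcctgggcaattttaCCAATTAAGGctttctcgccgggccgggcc
ACTN1, chr14:68977708-68977757, minus strand, in an intron, CArG box: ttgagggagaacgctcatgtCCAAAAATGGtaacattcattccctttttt
FLNC, chr7:128830283-128830328, plus strand, upstream of the gene, TEAD motif read on the other strand: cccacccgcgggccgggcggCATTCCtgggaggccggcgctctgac
MYH9, chr22:36388012-36388057, minus strand, upstream of the gene, TEAD motif: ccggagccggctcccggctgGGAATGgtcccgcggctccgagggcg
VCL, chr10:73997925-73997970, plus strand, in an intron, TEAD motif: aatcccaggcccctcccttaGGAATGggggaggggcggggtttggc
The ACTN1 stretch also holds the TEAD motif of that gene, read on the other strand, in lower case after the CArG box. Introns are those of GENCODE 44, and a stretch in an intron precedes an alternative start. A match describes these letters only.

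Library totals ran from 14962245 to 25339094 estimated counts. Of the granulosa cell markers, GATA4 stood at 129 to 154 CPM (counts scaled to library size, with TMM factors) and FST at 41.0 to 47.0 CPM. INHBA had 104 to 202 counts, NR5A1 83 to 156, HSD17B1 53 to 111, STAR 32 to 88 and AMH 14 to 43. FSHR had 0 counts in every library, CYP19A1 and INHA at most 4 and AMHR2 at most 7, so that FSHR, CYP19A1, INHA and AMHR2 were absent or nearly so. The summed level of the 11 granulosa markers was 197 to 215 CPM over all libraries. Among markers of other cells, CD68 stood at 88.7 to 117 CPM and DES at 30.4 to 44.2 CPM, with CD3E at most 1 count, PTPRC at most 5, and MYOD1 and MYOG at 0. The RNA of the transfected genes was far from equal between conditions, which bears on every comparison of mutant with wild type. FOXL2 averaged 560 CPM in FOXL2WT, 147 in FOXL2C134W, 384 in FOXL2WT + FOXO1 and 152 in FOXL2C134W + FOXO1, against 8.73 in Vectors. SMAD3 averaged 2767, 843, 969 and 392 CPM in the same order, against 249 in Vectors, and FOXO1 stood at 104 to 132 CPM in FOXL2WT + FOXO1 and at 39.1 to 47.2 in FOXL2C134W + FOXO1. For protein, the paper reports from immunoblots of samples cultured in parallel that both FOXL2 forms and FOXO1 were balanced. It does not name SMAD3 there. The part that the RNA levels have in the values below was not tested. In such bulk samples, fewer cells of a type and less RNA per cell cannot be told apart.

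FLNA, the widely expressed filamin, which crosslinks actin into networks and holds integrins and signaling proteins, stood at 1781, 1757 and 1754 CPM in replicates A, B and C of Vectors and at 1825, 1697 and 1785 in FOXL2WT. In FOXL2C134W it stood at 2407, 2552 and 2389 CPM. In FOXL2WT + FOXO1 it stood at 1938, 1968 and 1888 CPM and in FOXL2C134W + FOXO1 at 1955, 2265 and 2056. The 3 FOXL2C134W libraries lay above all others, Vectors and FOXL2WT overlapped at the bottom, and the conditions with FOXO1 lay between and overlapped each other.

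FLNC, the filamin known from striated muscle, where it sits at the Z disc, was well expressed in these cells. It stood at 392, 381 and 385 CPM in Vectors, at 371, 326 and 354 in FOXL2WT and at 498, 530.2 and 502 in FOXL2C134W. Under FOXO1 its level was 392, 404 and 379.7 CPM beside FOXL2WT and at 402, 475 and 428 beside FOXL2C134W. FOXL2C134W was again above all other libraries and FOXL2WT below all others, whereas Vectors and both conditions with FOXO1 formed a chain of overlapping ranges. The muscle markers MYOD1 and MYOG were at 0 in all libraries. The summed level of the 4 striated muscle markers, nearly all of it DES, was 42.1 to 44.2 CPM in Vectors, 33.5 to 36.5 in FOXL2WT and 30.7 to 31.8 in FOXL2C134W. It was 34.7 to 37.0 CPM in FOXL2WT + FOXO1 and 30.4 to 35.6 in FOXL2C134W + FOXO1.

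MYH9, the heavy chain of nonmuscle myosin IIA and the main motor of stress fibers, stood at 1356, 1275 and 1284 CPM in Vectors, at 1176, 1080.1 and 1145 in FOXL2WT and at 1686, 1945 and 1888 in FOXL2C134W. Its level with FOXO1 was 1298, 1401 and 1295 CPM beside FOXL2WT and at 1357, 1544 and 1453 beside FOXL2C134W. The order was the same as for FLNC, with FOXL2WT apart at the bottom and FOXL2C134W apart at the top.

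MYH10, the heavy chain of nonmuscle myosin IIB, had the lowest CPM of the 9 and the largest standard errors. It stood at 52.4, 43.98 and 45.0 CPM in Vectors, 34.4, 31.7 and 36.8 in FOXL2WT and 44.1, 57.5 and 58.6 in FOXL2C134W. With FOXO1 it stood at 34.97, 45.6 and 37.8 CPM beside FOXL2WT and at 42.4, 43.4 and 49.9 beside FOXL2C134W. In the order from FOXL2WT, the lowest, to FOXL2C134W, the highest, each condition overlapped at least one below it, and replicate A of FOXL2C134W lay inside the range of Vectors.

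ACTN1, the alpha-actinin of stress fibers and adhesions, had the smallest standard errors of the 9. It stood at 670.3, 684 and 693 CPM in Vectors, 797, 742 and 765 in FOXL2WT and 928, 922 and 887 in FOXL2C134W. In the libraries with FOXO1, it stood at 769.8, 751 and 787 CPM beside FOXL2WT and at 816, 866 and 855 beside FOXL2C134W. Here Vectors, and not FOXL2WT, was lowest, and only FOXL2WT and FOXL2WT + FOXO1 overlapped. ACTN4, the alpha-actinin that is also found in cell protrusions, stood at 691, 699.7 and 696 CPM in Vectors, 709, 652 and 713 in FOXL2WT and 877, 851 and 844 in FOXL2C134W. With FOXO1 it stood at 782, 753 and 762 CPM beside FOXL2WT and at 754, 847 and 805 beside FOXL2C134W. The ranges of FOXL2C134W and FOXL2C134W + FOXO1 overlapped for ACTN4, as did those of the conditions with FOXO1.

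TLN1, which encodes the talin that activates integrins and links them to actin, stood at 556, 513 and 545 CPM in Vectors, 496, 443 and 487 in FOXL2WT and 599, 682 and 653 in FOXL2C134W. With FOXO1 it stood at 534, 571 and 546 CPM beside FOXL2WT and at 536, 596 and 582 beside FOXL2C134W. VCL, whose product vinculin binds talin and actin and reinforces adhesions under load, stood at 539, 536 and 556 CPM in Vectors, 583, 581 and 568 in FOXL2WT and 607, 621 and 607 in FOXL2C134W. Once FOXO1 was added, it stood at 536, 573 and 590.2 CPM beside FOXL2WT and at 596, 615 and 641 beside FOXL2C134W. TLN1 followed the order of MYH9, while VCL moved little and was the only gene of the set whose highest mean lay in FOXL2C134W + FOXO1, in a range that overlapped that of FOXL2C134W.

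PLEC stood at 426, 390.0 and 425 CPM in Vectors, 358, 327 and 354 in FOXL2WT and 538, 643 and 593 in FOXL2C134W. With FOXO1 it stood at 409, 436 and 378 CPM beside FOXL2WT and at 407, 492 and 401 beside FOXL2C134W. Its FOXL2C134W libraries were above and its FOXL2WT libraries below all others, and the remaining 3 conditions overlapped. Over the set, the highest mean was in FOXL2C134W for 8 genes, and for 6 of them (FLNA, FLNC, MYH9, ACTN1, TLN1 and PLEC) the FOXL2C134W libraries were apart from all others. The lowest mean was in FOXL2WT for 6 genes and in Vectors for 3 (FLNA, ACTN1 and VCL).

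**Figure D1:**
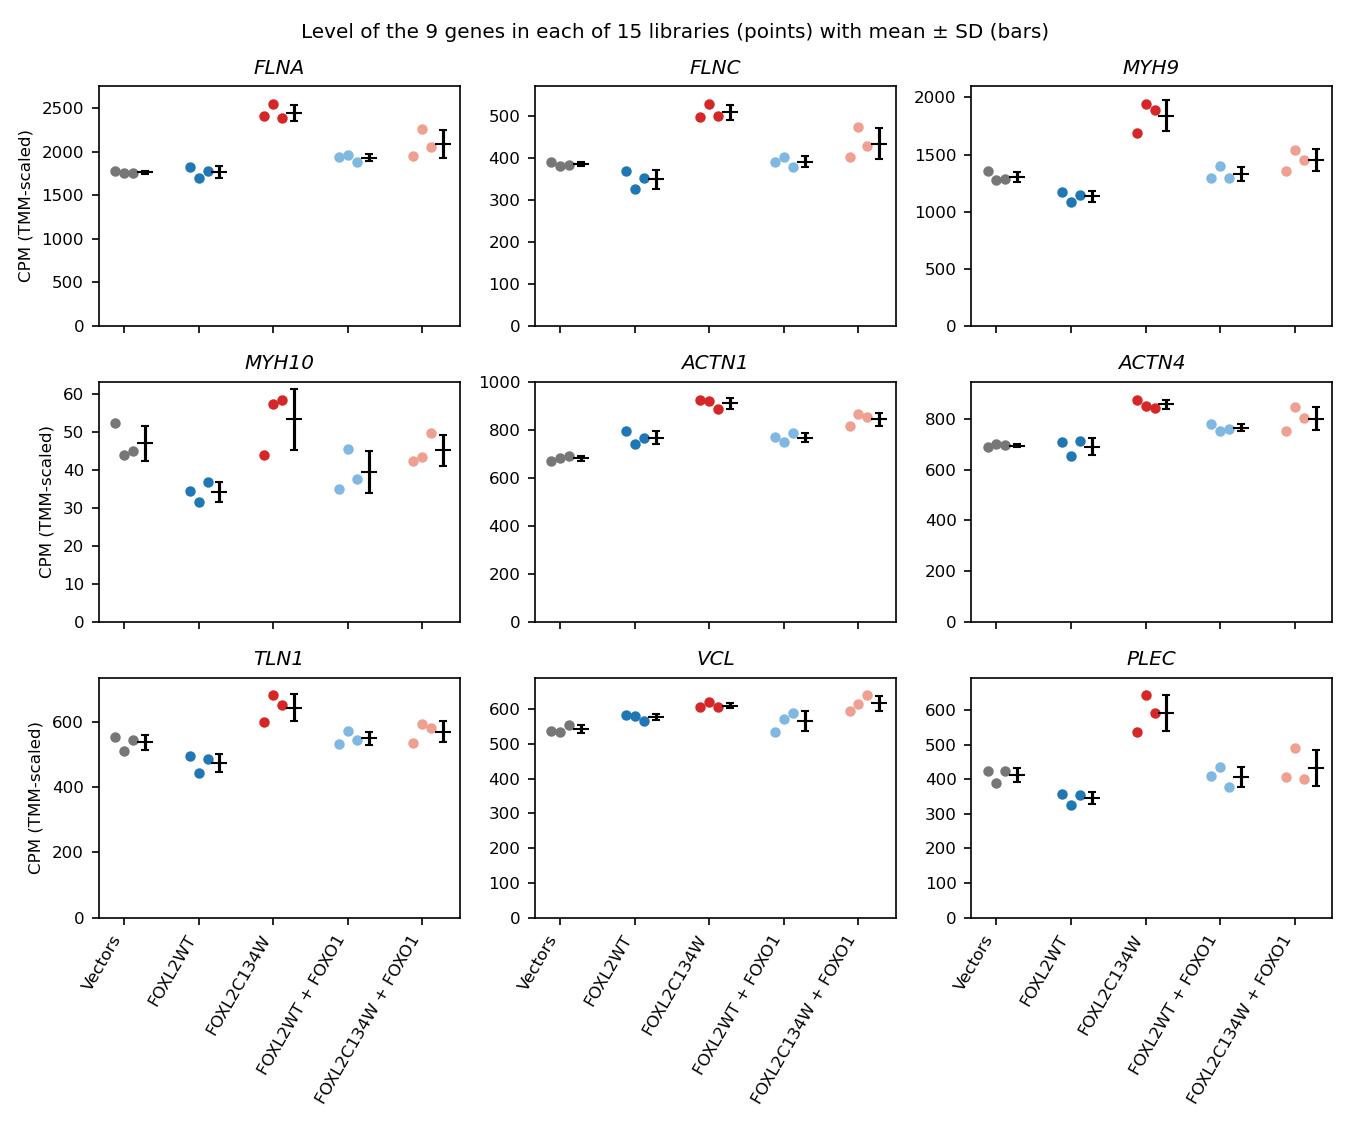
Level of each gene (vertical axis, TMM-scaled CPM from 0) in the 15 libraries, grouped by condition along the horizontal axis, where points are the libraries of replicates A, B and C and the black bar to their right is the mean ± SD (n = 3). The 3 FOXL2C134W libraries of MYH9 stand at 1686 to 1945 CPM, above the other 12, and the axes differ between genes.

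Levels can be compared between genes only per length, for which TPM (the abundance per length that salmon gives) of the transcript that took most reads of a gene was used. In Vectors this was 208 ± 10.7 (SD, n = 3) for MYH9-201, 179 ± 1.63 for ACTN1-201, 164 ± 11.6 for FLNA-203, 111 ± 4.57 for VCL-201, 73.7 ± 4.64 for TLN1-201 and 70.6 ± 2.87 for ACTN4-201. FLNC-201 stood at 49.7 ± 2.29 TPM, PLEC-211 at 21.9 ± 1.63 and MYH10-201 at 6.81 ± 0.970. Of neighbors in this order only TLN1-201 and ACTN4-201 overlapped between libraries. The order depends on the use of 1 transcript per gene, since TPM summed over all transcripts, short ones included, was 547 ± 9.05 for ACTN4, 442 ± 34.7 for FLNA, 284 ± 4.00 for ACTN1 and 256 ± 36.3 for MYH9. The summed TPM was 144 ± 3.73 for VCL, 123 ± 3.25 for TLN1, 50.6 ± 1.73 for FLNC, 39.5 ± 1.16 for PLEC and 9.22 ± 1.03 for MYH10. MYH10 was last on both scales.

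The 5 paralogs given here had low counts. TLN2 stood at 15.2 CPM in Vectors, MYH11 (smooth muscle myosin) never passed 9 counts, MYH14 (nonmuscle myosin IIC) never passed 3 counts, ACTN3 never passed 1, and ACTN2 averaged at most 2.16 CPM in a condition.

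The question whether mutant FOXL2 alters the genes differently from wild type was addressed by FOXL2C134W against FOXL2WT. All 9 genes were higher in FOXL2C134W, and for all 9 the libraries of the conditions did not overlap. The log2 fold changes were 0.47 (SE 0.05) for FLNA, 0.54 (0.05) for FLNC, 0.70 (0.05) for MYH9, 0.63 (0.11) for MYH10, 0.25 (0.04) for ACTN1, 0.31 (0.04) for ACTN4, 0.44 (0.05) for TLN1, 0.08 (0.04) for VCL and 0.77 (0.08) for PLEC, that is, from 1.06-fold for VCL to 1.71-fold for PLEC. At an adjusted p under 0.05, 8 of the 9 were past the threshold, where 7.13% of all genes tested were called higher and 14.8% did not overlap in that direction. Since this contrast is taken here as the source of the list, nothing follows from these counts. The median of the 9 was 0.47 and that of all genes tested -0.01.

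The same conditions were set against Vectors, again as a description. In FOXL2WT, MYH9 had a log2 fold change of -0.20 (SE 0.05), MYH10 of -0.45 (0.11), TLN1 of -0.18 (0.05), PLEC of -0.26 (0.08) and FLNC of -0.14 (0.05), and all 5 had libraries below those of Vectors without overlap, against 15.9% of all genes tested. ACTN1 went the other way, with 0.17 (0.04), VCL had 0.09 (0.04), and FLNA and ACTN4 stood at 0.00 and -0.01. Past the threshold were 1 gene on the higher and 2 on the lower side, where 2.46% of all genes were called higher and 3.61% lower. In FOXL2C134W, all 9 had positive log2 fold changes against Vectors, from 0.17 for VCL to 0.52 for PLEC, and 8 were past the threshold, against 7.48% of all genes. MYH10 had 0.18 (SE 0.11). The count in FOXL2WT against Vectors fell to 0 without replicate A of either condition and to 1 without replicate B of FOXL2WT.

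The addition of FOXO1 was described in each background. Against FOXL2C134W, the log2 fold changes in FOXL2C134W + FOXO1 were -0.23 (SE 0.05) for FLNA, -0.23 (0.05) for FLNC, -0.34 (0.05) for MYH9, -0.24 (0.11) for MYH10, -0.11 (0.04) for ACTN1, -0.10 (0.04) for ACTN4, -0.17 (0.05) for TLN1 and -0.45 (0.08) for PLEC, with VCL at 0.01 (0.04). The libraries of 6 genes (FLNA, FLNC, MYH9, ACTN1, TLN1 and PLEC) lay below those of FOXL2C134W without overlap, against 7.72% of all genes tested. Past the threshold were 3 genes, where 0.707% of all genes were called lower. FOXL2C134W belongs to the contrast taken here as the source of the list, so nothing is read from this count. It was 0 when replicate B or C of FOXL2C134W or replicate A or C of FOXL2C134W + FOXO1 was left out, and 5 without replicate A of FOXL2C134W.

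Against FOXL2WT, FOXL2WT + FOXO1 had log2 fold changes of 0.13 (SE 0.05) for FLNA, 0.16 (0.05) for FLNC, 0.23 (0.05) for MYH9, 0.20 (0.11) for MYH10, 0.15 (0.04) for ACTN4, 0.21 (0.05) for TLN1 and 0.24 (0.08) for PLEC, with ACTN1 at 0.00 (0.04) and VCL at -0.03 (0.04). The edgeR test called 0 of the 9, with 6 at an unadjusted p under 0.05, where 0.0505% of all genes were called. DESeq2 called 3, where it called 1.09% of the 6146 genes to which it gave an adjusted p. The libraries of 6 genes (FLNA, FLNC, MYH9, ACTN4, TLN1 and PLEC) lay above those of FOXL2WT, against 6.89% of all genes tested. Both comparisons with FOXO1 added share their reference libraries with the contrast taken here as the source of the list. SMAD3 and FOXL2 also differed with FOXO1 present, SMAD3 from 2767 to 969 CPM and FOXL2 from 560 to 384 CPM beside wild type and SMAD3 from 843 to 392 CPM beside the mutant, while FOXL2 beside the mutant averaged 147 and 152 CPM, and the part of this in the changes was not tested. The effect of FOXO1 beside the mutant minus that beside wild type, a contrast added after the values were seen, was -0.68 (SE 0.11) for PLEC, -0.57 (0.08) for MYH9, -0.39 (0.08) for FLNC, -0.39 (0.08) for TLN1 and -0.35 (0.06) for FLNA. These 5 were past the threshold, against 1.25% of all genes. Since the contrast contains the libraries taken here as the source of the list, nothing is read from the count.

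**Figure D2:**
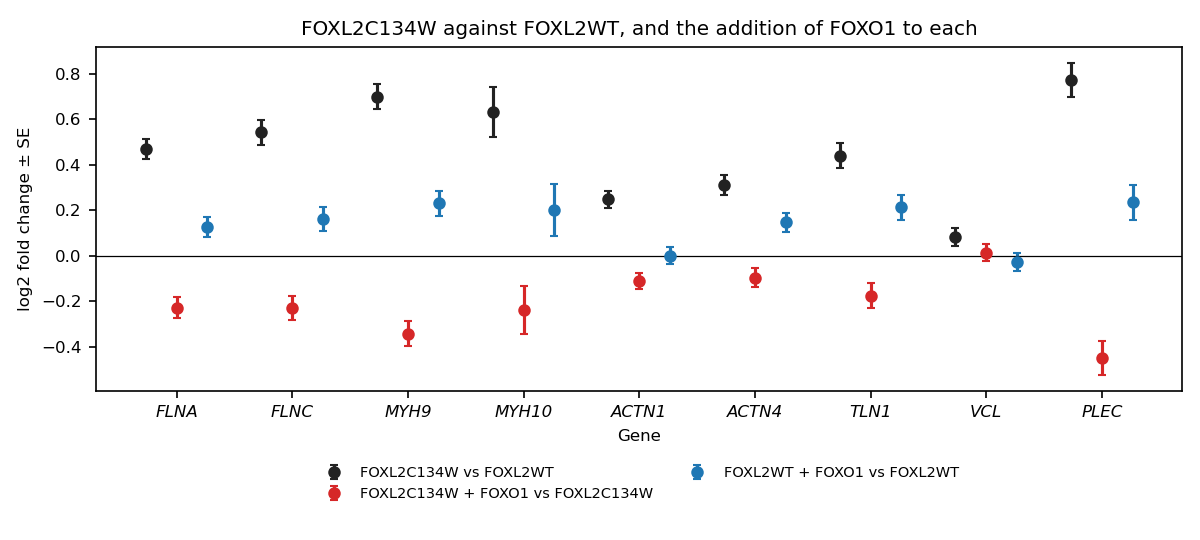
Log2 fold change ± SE of each gene (vertical axis) for FOXL2C134W against FOXL2WT (black), FOXL2C134W + FOXO1 against FOXL2C134W (red) and FOXL2WT + FOXO1 against FOXL2WT (blue), from one edgeR fit over 15 libraries. The red points lie at or below 0.01 and the blue ones at or above -0.03, and VCL lies near 0 in all 3 comparisons.

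The libraries with FOXO1 and those of Vectors lie outside FOXL2C134W against FOXL2WT, the contrast taken here as the source of the list. Comparisons of the libraries with FOXO1 with each other and with Vectors were therefore tested. The source contrast is not named, and the list was chosen with earlier results of these data known. The adjusted p-values may thus not be independent of that choice. In FOXL2C134W + FOXO1 against FOXL2WT + FOXO1, no gene passed, though all 9 were on the positive side. The log2 fold changes were 0.12 (SE 0.05) for FLNA, 0.15 (0.05) for FLNC, 0.12 (0.05) for MYH9, 0.19 (0.11) for MYH10, 0.14 (0.04) for ACTN1, 0.07 (0.04) for ACTN4, 0.05 (0.05) for TLN1, 0.12 (0.04) for VCL and 0.09 (0.08) for PLEC. Adjusted p ran from 0.172 for ACTN1 to 0.708 for TLN1 (edgeR quasi-likelihood test, Benjamini-Hochberg over all genes tested), with 5 of the 9 at an unadjusted p under 0.05, where edgeR called 0.144% of all genes. DESeq2 called 1 of the 9, where it called 1.94% of the 6146 genes to which it gave an adjusted p. ACTN1 was called under 4 of 12 other settings, and FLNC under 1. Only ACTN1 and VCL had libraries that did not overlap, against 7.38% of all genes. The 95% interval of the difference was widest for MYH10, from -0.05 to 0.43. It was 0.02 to 0.21 for FLNA, 0.03 to 0.27 for FLNC, 0.00 to 0.24 for MYH9, 0.06 to 0.22 for ACTN1 and -0.03 to 0.16 for ACTN4. It was -0.07 to 0.17 for TLN1, 0.04 to 0.21 for VCL and -0.08 to 0.25 for PLEC, and these intervals are not adjusted for the number of genes.

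With FOXO1 present, the mutant condition was still above Vectors for part of the set. ACTN1 rose by a log2 fold change of 0.31 (SE 0.04, adjusted p = 2.96e-05), FLNA by 0.25 (0.05, adjusted p = 0.0017), ACTN4 by 0.21 (0.04, adjusted p = 0.00419) and VCL by 0.18 (0.04, adjusted p = 0.00481), and each was higher in all 3 libraries than in any library of Vectors, as were FLNC and MYH9, against 14.1% of all genes. FLNC was just past the threshold at 0.17 (SE 0.05, adjusted p = 0.0497), and it missed it under 7 of 12 other settings and without any of 5 single libraries. VCL missed it under 1 other setting, DESeq2 with transcript length offsets, in which its log2 fold change was 0.0040 (adjusted p = 0.985). Not past it were MYH9 with 0.15 (SE 0.05, adjusted p = 0.0881), TLN1 with 0.09 (0.05, adjusted p = 0.363), PLEC with 0.07 (0.08, adjusted p = 0.656) and MYH10 with -0.06 (0.11, adjusted p = 0.80). MYH9 was called, however, under 4 of 12 other settings and in 1 of 6 fits that left out a single library. The 5 called genes are to be read against 4.17% of all genes called higher, and they are 4 actin crosslinkers and the vinculin gene. Without replicate B of FOXL2C134W + FOXO1, the log2 fold change of FLNC fell to 0.11, and that of PLEC turned to -0.04.

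FOXL2WT + FOXO1 was likewise set against Vectors. ACTN1 alone passed the threshold, with a log2 fold change of 0.17 (SE 0.04, edgeR adjusted p = 0.0114), where 1.41% of all genes were called higher. The call was lost in edgeR without replicate A of Vectors (adjusted p = 0.069) and without replicate C of FOXL2WT + FOXO1 (0.0592). It was also lost in DESeq2 with transcript length offsets (0.133). ACTN4 had 0.14 (SE 0.04, adjusted p = 0.0812), FLNA 0.13 (0.05, adjusted p = 0.126), VCL 0.06 (0.04, adjusted p = 0.464) and MYH10 -0.25 (0.11, adjusted p = 0.251), and FLNC, MYH9, TLN1 and PLEC lay between -0.02 and 0.03. Of these, FLNA was called under 5 of 12 other settings, ACTN4 under 3 and MYH10 under 1. Both comparisons use the same 3 Vectors libraries, so that their values are not independent of each other.

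**Figure D3:**
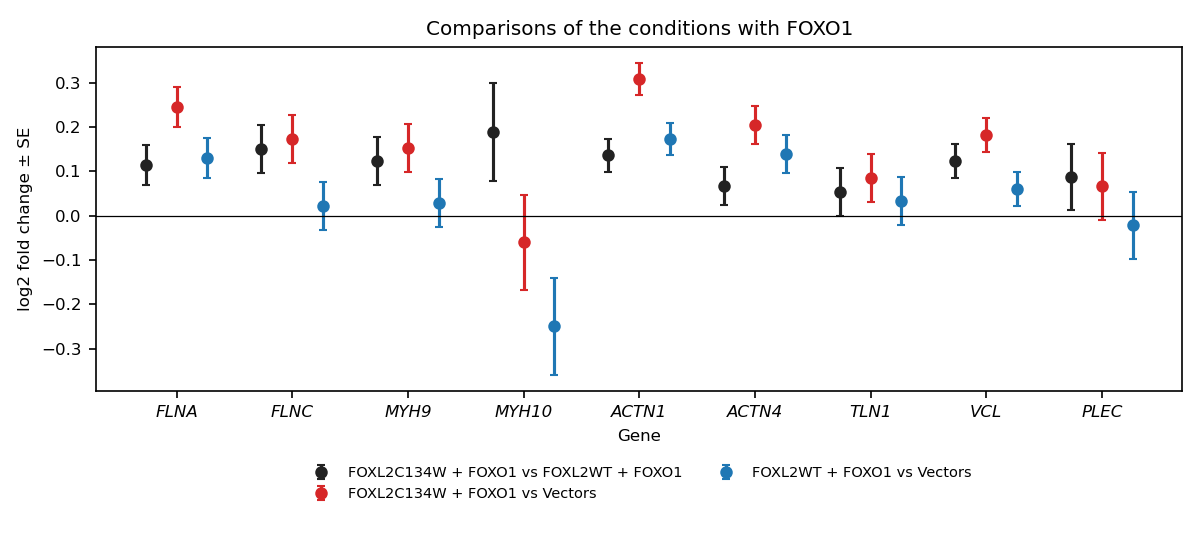
Log2 fold change ± SE of each gene (vertical axis) for FOXL2C134W + FOXO1 against FOXL2WT + FOXO1 (black), FOXL2C134W + FOXO1 against Vectors (red) and FOXL2WT + FOXO1 against Vectors (blue). ACTN1 has the highest red point, 0.31, and MYH10 the lowest of all, -0.25 in blue, with the widest errors.

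The genes differ from most others in length, and differences between these libraries went with transcript length. Across the 13863 tested genes with a length, the Spearman correlation of log2 fold change with length was 0.36 in FOXL2C134W against FOXL2WT, 0.29 in FOXL2C134W + FOXO1 against FOXL2WT + FOXO1 and 0.11 in FOXL2C134W + FOXO1 against Vectors, and it was -0.15 in FOXL2WT against Vectors and -0.19 in FOXL2C134W + FOXO1 against FOXL2C134W (across genes of the same libraries, a description). Of the 9, all but ACTN1 and ACTN4 were longer than 90% of the genes with a length, PLEC leading with a TPM-weighted mean of 12526 bases, against a median of 2110 bases. With a length offset in the fit, the median of the 9 in FOXL2C134W against FOXL2WT went from 0.47 to 0.35, with 8 still called, and VCL went to -0.02. In FOXL2C134W + FOXO1 against FOXL2WT + FOXO1 the median went from 0.12 to 0.07 with the length offset. TLN1 and PLEC turned to -0.00338 and -0.016 there. The correlation with GC content in this comparison was -0.25. Its median was 0.16 with the GC offset and 0.11 with both offsets, with all 9 positive and 1 called under each. In FOXL2WT against Vectors the median went from -0.14 to -0.07, and in FOXL2C134W + FOXO1 against FOXL2C134W, where the correlation with GC content was -0.23, it went from -0.23 to -0.13, and to -0.08 with offsets for length and GC content. The median of the interaction went from -0.39 to -0.30, and to -0.22 with both offsets.

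**Figure D4:**
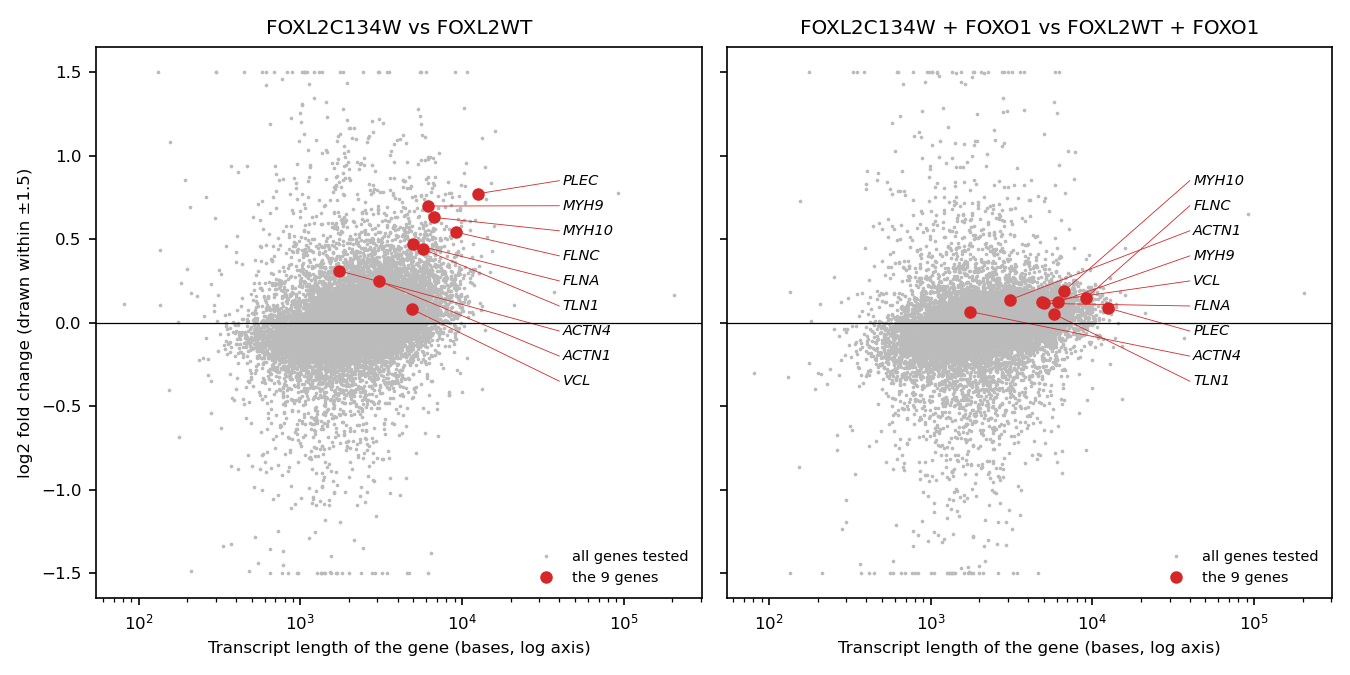
Log2 fold change (vertical axis, values outside ±1.5 drawn at the edge) against the TPM-weighted mean transcript length (horizontal log axis, bases) for all genes tested (grey) and the 9 genes (red, with leader lines to their names), in FOXL2C134W against FOXL2WT (left) and FOXL2C134W + FOXO1 against FOXL2WT + FOXO1 (right). PLEC, the longest, lies highest on the left at 0.77, and VCL, also a long gene, lowest at 0.08, while on the right all 9 lie between 0.05 and 0.19.

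Around the 9 genes, 70 further genes of actin filaments, myosin regulation, crosslinking and adhesion were looked at, of which 67 were tested. In FOXL2C134W + FOXO1 against FOXL2WT + FOXO1, edgeR called 0 of them, with 15 at an unadjusted p under 0.05 and 2 called by DESeq2, and their median log2 fold change was 0.04 against 0.00 for all genes. In FOXL2C134W + FOXO1 against Vectors, 19 rose and 3 fell, with a median of 0.09, where 4.17% of all genes were called higher and 9.33% in either direction. Actins and tropomyosins, the filaments on which the 9 act, rose in 5 of 8 cases, adhesion adaptors and kinases rose in 9 and fell in 2 of 32, crosslinkers and plakins rose in 3 of 12 and myosin light chains and regulators in 1 of 12. Named after their values were seen, the risers included ACTG1 (cytoplasmic gamma-actin, 0.31, SE 0.06, adjusted p = 0.00357), TPM2 (a tropomyosin, 0.29, SE 0.04, adjusted p = 8.49e-05), MYL9 (a myosin II light chain, 0.37, SE 0.06) and EPPK1 (epiplakin, a relative of plectin, 0.84, SE 0.14). Of the paralogs, ACTN2 fell by 1.01 from a level of 2.16 CPM in Vectors, and TLN2, with 0.27 (SE 0.09, adjusted p = 0.086), did not pass. In FOXL2WT + FOXO1 against Vectors, 9 of the 67 rose and 0 fell, where 1.41% of all genes were called higher, MYL9 among them with 0.35 (SE 0.06). In FOXL2C134W against FOXL2WT, 24 were past the threshold on the higher and 2 on the lower side. Of all genes, 7.13% were called higher. As these lists too were drawn up with earlier results of these data known, nothing is read from the counts. Crosslinkers and plakins, the class closest to the 9, made up 8 of the 24 with 12 genes tested, while actins and tropomyosins made up 1 of 8.

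The levels of the genes were correlated over the libraries, and less so once the means of the conditions were removed. Over the 15 libraries, the 36 pairs of genes had a median Pearson correlation of log2 CPM of 0.83, from 0.30 to 0.98, and after the means of the conditions were removed the median was 0.43, from -0.23 to 0.97. The pair with the strongest relation within conditions was FLNA and FLNC. All 9 genes were above their own mean over the 15 libraries in each FOXL2C134W library, and in replicates A, B and C of FOXL2C134W + FOXO1 there were 2, 9 and 8 such genes, so that replicate A of that condition stood lower than its companions. In FOXL2WT + FOXO1 there were 1, 4 and 2 such genes. The genes whose log2 CPM was most like the mean of the standardized 9 over the 15 libraries were MYBBP1A and KIF1C (r = 0.98 each), MPRIP (0.97), BCR (0.96) and TNS1 (0.96), where the 99th percentile of the other 13859 genes was 0.873. These libraries share their conditions and include those of the contrast taken here as the source of the list, so the values describe the pattern only. Correlations between pairs of other genes were not computed.

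The deposited transcript estimates showed which forms were measured. A single transcript took most of the reads of FLNC (FLNC-201, 96.8%), MYH9 (MYH9-201, 99.4%), MYH10 (MYH10-201, 95.9%), TLN1 (TLN1-201, 98.2%), VCL (VCL-201, 91.2%) and ACTN1 (ACTN1-201, 83.5%), as mean shares over the 15 libraries. VCL-202, which encodes the longer metavinculin of muscle, took 7.42% of the VCL reads, with 7.28% ± 1.32 (SD, n = 3) in Vectors and 6.30% ± 0.07 in FOXL2C134W + FOXO1. Its share was 7.75% ± 1.38 in FOXL2WT, 7.99% ± 0.13 in FOXL2C134W and 7.79% ± 1.02 in FOXL2WT + FOXO1. Reads of PLEC were divided among PLEC-211 (47.8%), PLEC-202 (25.6%) and PLEC-201 (14.2%), whose starts differ, and the share of PLEC-211 was 50.9% ± 0.56 in FOXL2WT and 44.7% ± 3.24 in FOXL2C134W. Reads of ACTN4 were divided among ACTN4-201 (41.5%), ACTN4-202 (29.6%) and ACTN4-210 (14.1%), and the share of ACTN4-201 averaged 40.5% to 42.4% in the 5 conditions. ACTN4-210 is labeled as a retained intron and not as protein coding, as is ACTN4-208 (8.09%), and ACTN4-207 (6.19%) as a processed transcript.

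FLNA reads were divided among the near-identical FLNA-203 (61.4%), FLNA-201 (17.1%) and FLNA-206 (16.5%). A further transcript, FLNA-202, was at 0 reads in all libraries of Vectors and FOXL2WT, at 654, 0 and 0 in FOXL2C134W, at 448, 185 and 1569 in FOXL2WT + FOXO1 and at 0, 515 and 0 in FOXL2C134W + FOXO1. It was present or absent within a condition from one library to the next, at no more than 4.0% of the FLNA reads, and the assignment of reads among such similar transcripts is an estimate. The shares are given without a test, since the planned test of transcript usage recovered 3.5% of changes placed in simulated counts.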

How the data were processed

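Poly(A) RNA of 15 libraries (TruSeq stranded mRNA, 75-bp single-end reads) was quantified by the authors with salmon 1.1.0 on hg38. They deposited estimated counts per gene, which entered the edgeR fit as deposited, and estimated counts and TPM per transcript. Transcript names and lengths are those of the deposited estimates. The release of their annotation and the version of their DESeq2 are not given in the sources used here. GENCODE 44, used for GC content, gene positions and introns, held 98.4% of the deposited transcripts and 98.7% of their reads.

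Groups came from the sample labels. Genes were filtered with filterByExpr, scaled by TMM and tested with the quasi-likelihood test of edgeR 4.0.16 (R 4.3.3) in one fit over all libraries, with Benjamini-Hochberg adjustment over 13868 genes and a threshold of 0.05. Alternatives used DESeq2 1.42.0, other filters and scalings, offsets for length and GC content, a replicate block and the omission of single libraries. The gene test was tested on simulated data for FOXL2C134W + FOXO1 against FOXL2WT + FOXO1 with 200 changed among 13726 genes. It recovered 92% of log2 changes of 0.5 and 100% of those of 1, with 7 of 199 calls false. Smaller changes were not simulated, so the check does not cover differences of 0.05 to 0.19, those of the 9 genes in this comparison. The test of transcript usage (diffSpliceDGE) was left out, because on simulated counts with a 4-fold change in 200 genes it recovered 3.5% of them, and 128 of its 135 calls were false.

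The members and lists were chosen with earlier results of these data known. Named were the 9 genes, the transfected genes, 6 paralogs, called genes at the extremes of the pathway groups in FOXL2C134W + FOXO1 against FOXL2WT + FOXO1 (there were none), the 5 genes most alike in pattern and transcripts with a mean share of at least 10%, and others are said to be named after their values were seen. One of the paralogs is not reported here. Library totals of 14962245 to 25339094 estimated counts set the counting precision. Replicates differed beyond counting noise (chi-square per degree of freedom 2.21 to 8.65). The labels do not say that they came from separate cultures, so that p-values measure the spread between these samples, which may be technical. Intervals of fold changes are 95% intervals from the fit.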

Additional observations from a re-analysis of the deposited data

Results flagged for a closer look

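An interaction contrast of the edgeR fit, added after the values were seen, set the effect of adding FOXO1 beside FOXL2C134W against that beside FOXL2WT, and 5 of the 9 genes were past its threshold. On the log2 scale, the effect beside FOXL2C134W minus that beside FOXL2WT was -0.35 for FLNA, -0.39 for FLNC, -0.57 for MYH9, -0.39 for TLN1 and -0.68 for PLEC. The contrast contains the libraries taken here as the source of the list, so these values are a description and not a test of the genes. With other settings FLNC went as far as -0.19 (length and GC offsets) and TLN1 as far as -0.15 (DESeq2 with length offsets). The count of 5 fell to 3 without replicate B of FOXL2WT, of FOXL2C134W or of FOXL2WT + FOXO1, and without replicate A of FOXL2C134W + FOXO1. The RNA levels of SMAD3, FOXL2 and FOXO1 differed between the same conditions, and their part in the result was not tested.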

How the results depend on the processing

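In FOXL2C134W against FOXL2WT, 7 to 8 genes were called under every alternative run. Other counts of called genes moved, and the cause was not tested. For FOXL2WT against Vectors (3 called), DESeq2 called 5, DESeq2 with transcript length offsets 0, a filter of at least 1 count in any library 6, one of 10 counts in every library 5, a fit of only the groups compared 6, length and GC offsets 6, and fits without one library 0 to 2. For FOXL2C134W + FOXO1 against FOXL2C134W (3), DESeq2 with length offsets called 1, the 1-count filter 6, only the groups compared 0, and fits without one library 0 to 5. For FOXL2WT + FOXO1 against FOXL2WT (0), DESeq2 called 3, the 1-count filter 4, the length offset 1, length and GC offsets 2, the replicate block with length offset 1, the read-weighted length offset 1 and fits without one library 0. For FOXL2C134W + FOXO1 against FOXL2WT + FOXO1 (0), DESeq2 called 1, the 1-count filter 2, the GC offset 1, length and GC offsets 1 and fits without one library 0. For FOXL2C134W + FOXO1 against Vectors (5), DESeq2 with length offsets called 3 and fits without one library 4 to 6. For FOXL2WT + FOXO1 against Vectors (1), DESeq2 called 2, DESeq2 with length offsets 0, the 1-count filter 4, the length offset 2, length and GC offsets 2, the replicate block with length offset 2, the read-weighted length offset 3 and fits without one library 0 to 1. For the interaction (5), DESeq2 with length offsets called 3 and fits without one library 3 to 6. Of the 67 pathway genes in FOXL2C134W + FOXO1 against FOXL2WT + FOXO1 (0), DESeq2 called 2, the 1-count filter 6, the length offset 1, the GC offset 1, both offsets 2, the replicate block with length offset 1 and the read-weighted length offset 1.

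In the comparisons that were only described, turned signs were looked for among genes called in the main fit, and none was found. Genes not called there could turn. Over the other settings VCL ranged from -0.13 to 0.06 in FOXL2C134W + FOXO1 against FOXL2C134W. FLNA ranged from -0.10 to 0.06 in FOXL2WT against Vectors. The signs that turned in the tested comparisons follow. In FOXL2C134W + FOXO1 against FOXL2WT + FOXO1 these were VCL in DESeq2 with length offsets (-0.018), TLN1 with the length offset (-0.00338), with the block and length offset (-0.00331) and with the read-weighted offset (-0.016), and PLEC under the same 3 settings (-0.016, -0.015 and -0.014) and without replicate B of FOXL2C134W + FOXO1 (-0.014, and up to 0.14 without other libraries). Against Vectors, PLEC in FOXL2C134W + FOXO1 turned with length and GC offsets (-0.011) and without replicate B (-0.035, and up to 0.12 without other libraries), and MYH10 without replicate A of Vectors (0.023, and down to -0.14 without others). In FOXL2WT + FOXO1 against Vectors, TLN1 turned in DESeq2 with length offsets (-0.16), PLEC with the length offset (0.026), the block and length offset (0.024), the read-weighted offset (0.018) and without replicate C (0.031, and down to -0.074 without other libraries), FLNC with the GC offset (-0.018) and MYH9 without replicate B (-0.0093, and up to 0.057 without other libraries).

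The replicate letters did not pair the samples (r of same-letter deviations -0.164 to 0.165, 2 of 30 over 0.1), and the replicate block alone called 4 genes in FOXL2C134W + FOXO1 against Vectors and 0 in FOXL2C134W + FOXO1 against FOXL2WT + FOXO1. The 3 alternatives for transcript usage were not run. Read-weighted length offsets and the interaction were chosen after seeing the data.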
